A study of Mus musculus with 11 samples.

Results

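ERK feedback inhibitors and fibroblast growth factor (FGF) target genes were described in mouse embryos at E8.5 through 10 genes: Spred1, Spred2, Spry1, Spry2, Spry4, Dusp4, Dusp6, Etv4, Etv5 and Il17rd. Every probe that the platform annotation ties to 1 of these symbols was kept and shown apart, which gave 13 of the 21789 probes with 1 gene symbol, or 10 of 19938 genes. Spred2, Etv5 and Il17rd each had a pair of probes and the other 7 genes had 1 probe each. The study compared neural crest (n = 5 arrays), paraxial mesoderm (n = 3) and neuroepithelium (n = 3). All 11 samples came from outbred CD1 embryos with the day of the plug counted as E0.5, with no genotype or treatment named, and were cut from frozen sections by laser capture microdissection. Although the series speaks of single cells, neither the cells captured per array nor the embryo of origin is labelled. The p-values below therefore measure only the spread between arrays, which may be technical, and they are too small if arrays of 1 tissue shared an embryo. Were every array a lone cell of unknown embryo, a tissue would amount to 1 sample and the tests would not apply.

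FGFs bind receptor tyrosine kinases and, through RAS, RAF and MEK, activate the kinase ERK. Active ERK switches on its own brakes along with its targets, so the transcripts of Sprouty, Spred, Dusp and Etv genes are widely used in embryos as a readout of FGF signalling. Around the stage studied here, FGF signalling is known for its roles in patterning the neural plate, in paraxial mesoderm and somite formation, and in neural crest induction. Sprouty and Spred proteins restrain the pathway at RAS and RAF, Dusp6 and Dusp4 remove phosphates from ERK, Il17rd (also called Sef) is a membrane inhibitor of FGF signalling, and Etv4 and Etv5 are ETS transcription factors that carry the signal to target genes.

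The deposited numbers are ratios to a reference value of each probe, so 1 means equal to the reference. The reference behaved as the probe's median over 9 arrays, 8 of them among the 11 given here. A transcript missing everywhere and a transcript equally abundant everywhere both sit near 1, and the ratios hold no expression level and cannot be ranked between genes. In tissue captures, fewer cells of a type and less RNA per cell cannot be told apart. A probe is called high or low on an array when it was at least 4-fold above or below its reference.

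Of the 13 probes, 11 stayed within 2-fold of their reference on all 11 arrays and 10 stayed within 1.5-fold. Over all 21789 probes these shares were 71.9% and 68.3%. The exceptions were a probe of Spred2, which was high on 4 of 5 neural crest arrays and on no other array, and the probe of Spry2, which was high on 1 neuroepithelium array. So 2 of 13 member probes were high on at least 1 array, against 21.0% of all probes. Of all probes 8.90% were high on exactly 1 array, as Spry2 was. No member probe was low on any array, against 5.30% of all probes low on at least 1 array. In limma, 0 of the 13 probes passed at an adjusted p of 0.05 in any of the 3 comparisons, against 0.0275% of all probes between neural crest and neuroepithelium, 0.00918% between neural crest and paraxial mesoderm and 0.0138% between paraxial mesoderm and neuroepithelium.

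**Figure D1:**
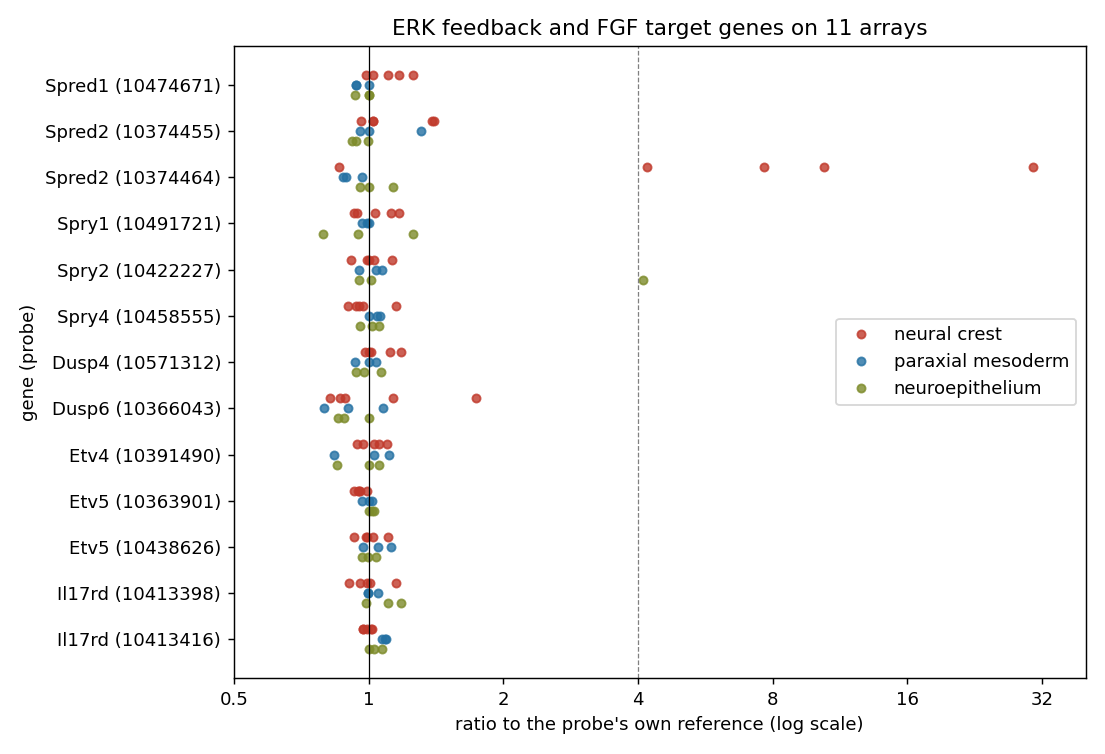
Ratio of each array to the probe's own reference (log scale) for the 13 probes of the 10 genes, with neural crest, paraxial mesoderm and neuroepithelium arrays as coloured points. The solid line marks 1 and the dashed line 4. Spred2 probe 10374464 spreads up to 30.6 in neural crest and Spry2 has 1 neuroepithelium array at 4.11, while the other 11 probes stay between 0.789 and 1.74.

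Spred2, a membrane-associated inhibitor that keeps RAF from being activated, carried the widest variation of the 10 genes. Its probe 10374464 had ratios of 0.857, 4.19, 7.64, 10.4 and 30.6 on neural crest arrays 1 to 5, against 0.890, 0.874 and 0.968 on the paraxial mesoderm arrays and 1.14, 0.958 and 1.00 on the neuroepithelium arrays. Crest arrays 2, 3, 4 and 5 thus lay above all 6 arrays of the other tissues, whereas crest array 1 was the lowest of all 11 arrays, so the tissues overlapped. The log2 ratio averaged 2.62 ± 1.90 in neural crest (SD, n = 5), -0.14 ± 0.08 in paraxial mesoderm (SD, n = 3) and 0.04 ± 0.13 in neuroepithelium (SD, n = 3).

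On the log2 scale neural crest exceeded neuroepithelium by 2.58 (SE 0.94), a 5.97-fold difference with a 95% interval of 1.37 to 26.0, and paraxial mesoderm by 2.75 (SE 0.94), a 6.75-fold difference with an interval of 1.55 to 29.4. Neither difference passed over all probes (limma, adjusted p = 1.00 for both, unadjusted p = 0.0228 and 0.0168). The two-sided exact permutation test over arrays gave p = 0.143 for each, where the smallest p that 5 against 3 arrays allow is 0.0357. Without crest array 1 the difference from neuroepithelium was 3.29 (SE 0.57) and that from paraxial mesoderm 3.47 (SE 0.57), still without passing (limma, adjusted p = 0.644 and 0.915). Paraxial mesoderm and neuroepithelium overlapped on this probe and differed by -0.18 on the log2 scale, with an SE of 1.05 from a variance pooled over the 3 tissues, which includes the wide spread of the crest arrays.

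The second Spred2 probe, 10374455, did not show this. It had 0.964, 1.02, 1.03, 1.39 and 1.40 on crest arrays 1 to 5, 0.957, 1.00 and 1.31 on the mesoderm arrays and 0.918, 0.996 and 0.938 on the neuroepithelium arrays. Its highest values fell on crest arrays 5 and 4, which were also the highest of the other probe, but mesoderm array 3 stood next to them and no array reached 1.5. The difference between neural crest and neuroepithelium was 0.27 (SE 0.16) on the log2 scale. The platform annotation lists 5 transcript records for this probe and 3 for probe 10374464, with 1 record in common. Which of them follows the Spred2 transcript was not tested.

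Other genes also had probes that differed in this way. Among the 999 genes with several probes, 341 had a probe that was high on some array, and in 238 of these (69.8%) another probe of the gene stayed within 2-fold on that array. It cannot be set against the 71.9% of all probes within 2-fold, since that share counts single probes over all 11 arrays at once. A probe high on at least 4 arrays, as for Spred2, occurred in 103 genes, and in 31 of them (30.1%) another probe stayed within 2-fold on at least 4 of those arrays.

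**Figure D2:**
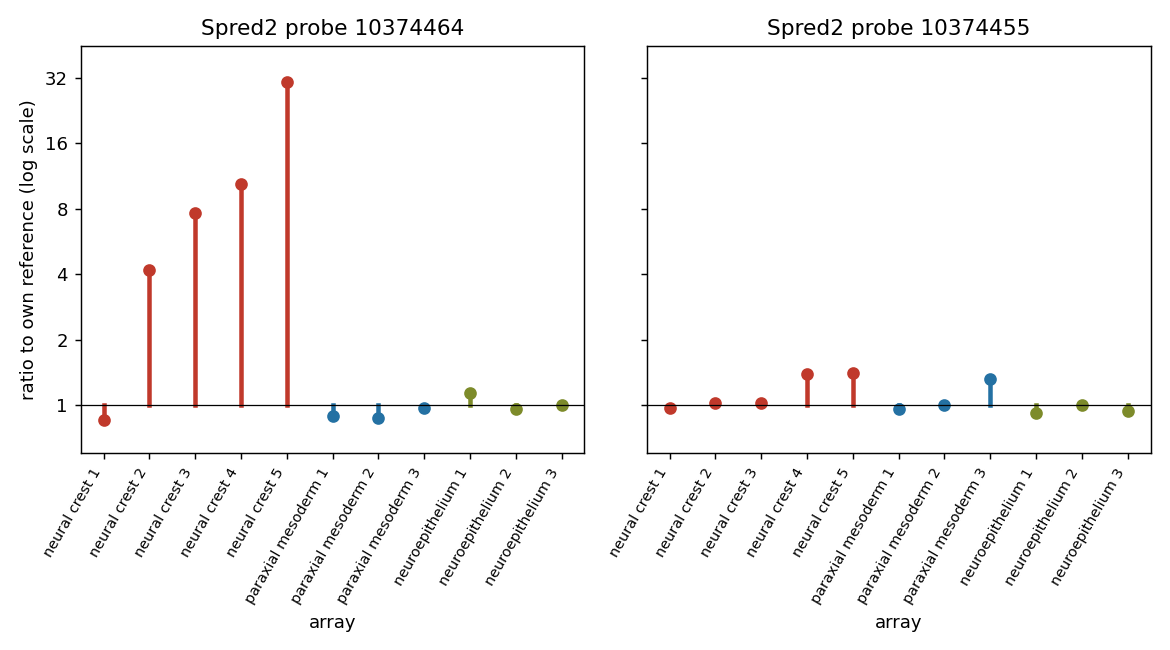
Ratio to the probe's own reference (log scale) on each of the 11 arrays for Spred2 probe 10374464 (left) and probe 10374455 (right). Lines run from 1 to the value, in red for neural crest, blue for paraxial mesoderm and olive for neuroepithelium. The left probe reaches 4.19 to 30.6 on 4 crest arrays, and the right probe stays at or below 1.40.

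The stretch upstream of the Spred2 start is shown because Spred2 is the member with the most variable readout and because ETS factors such as Etv4 and Etv5 act at sites with a GGAA core. It comes from RefSeq, build GRCm38.p6, chr11:19924192-19924441, plus strand, and ends at the base before the annotated start. Capitals mark only the match to the motif GGAAGT, here on the minus strand and beginning 33 bases before the start. Other GGAA cores, on either strand, are left in lower case.
Spred2: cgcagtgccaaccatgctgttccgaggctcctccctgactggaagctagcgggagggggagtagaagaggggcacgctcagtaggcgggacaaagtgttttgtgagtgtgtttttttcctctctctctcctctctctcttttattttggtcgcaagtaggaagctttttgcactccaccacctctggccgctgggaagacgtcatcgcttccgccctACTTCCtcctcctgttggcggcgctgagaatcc
The motif GGAAGT was searched on both strands in the 250 bases upstream of each start. It occurred in 2 of the 8 promoters listed for 7 member genes (Spred1, Spred2, Spry1, Spry2, Dusp6, Etv5 and Il17rd), namely that of Spred2 and 1 of the pair listed for Etv5, and in 19.7% of 32851 promoters of the same length. The longer form CCGGAAGT, which contains GGAAGT, occurred in 0 of the 8 and in 2.88% of all. These matches are a description of letters and the arrays did not measure binding.

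Spred1, the close relative of Spred2, stayed within 1.3-fold on every array. Its ratios were 1.10, 1.02, 0.987, 1.17 and 1.26 on crest arrays 1 to 5, 0.938, 1.00 and 0.936 in paraxial mesoderm and 0.933, 1.00 and 1.00 in neuroepithelium. Crest arrays 5 and 4 were the highest, and 4 of 5 crest arrays lay above all arrays of the other tissues. Such a rank was not particular to the Spred genes, since crest array 4 was also the highest for Spry4, at 1.15. The excess of neural crest was 0.18 over neuroepithelium and 0.21 over paraxial mesoderm on the log2 scale (SE 0.08 for both), with an adjusted p of 1.00 in limma.

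The Sprouty genes encode cytoplasmic inhibitors that ERK signalling induces. Spry2 gave 0.990, 1.00, 0.916, 1.13 and 1.03 in neural crest, 0.954, 1.04 and 1.07 on the mesoderm arrays and 0.951, 1.01 and 4.11 on the neuroepithelium arrays. Neuroepithelium array 3 alone was high, and the other 10 arrays lay between 0.916 and 1.13. The group mean of neuroepithelium was 0.66 ± 1.19 (SD, n = 3) on the log2 scale, a spread wider than the mean itself.

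Spry1 ran from 0.927 to 1.17 in neural crest, from 0.969 to 1.00 in paraxial mesoderm and from 0.789 to 1.26 in neuroepithelium. Its lowest and its highest value both came from neuroepithelium. Spry4 ran from 0.901 to 1.15 in neural crest, from 1.00 to 1.06 in paraxial mesoderm and from 0.957 to 1.06 in neuroepithelium. Neither gene set the tissues apart, with log2 differences of at most 0.08 in size in each comparison.

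The dual-specificity phosphatases act on ERK itself. Dusp6, the cytoplasmic ERK phosphatase and a common marker of FGF activity, had 1.14, 1.74, 0.821, 0.887 and 0.865 on crest arrays 1 to 5, 0.794, 0.898 and 1.07 in paraxial mesoderm and 0.881, 0.853 and 1.00 in neuroepithelium. Crest arrays 2 and 1 were the highest of the 11 arrays, and crest arrays 3, 4 and 5 lay among those of the other tissues. The difference between neural crest and neuroepithelium was 0.20 on the log2 scale (SE 0.24). Dusp4, its nuclear relative, stayed between 0.980 and 1.18 in neural crest, 0.935 and 1.04 in paraxial mesoderm and 0.937 and 1.07 in neuroepithelium.

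The Etv genes, the transcriptional outlet of the pathway, lay within 1.5-fold of their reference throughout. Etv4 ran from 0.942 to 1.10 in neural crest, from 0.838 to 1.11 in paraxial mesoderm and from 0.851 to 1.06 in neuroepithelium. Etv5 probe 10438626 ran from 0.925 to 1.11 in neural crest, from 0.970 to 1.12 in paraxial mesoderm and from 0.968 to 1.04 in neuroepithelium. Etv5 probe 10363901 had 0.951, 0.958, 0.991, 0.927 and 0.945 in neural crest, 1.00, 1.02 and 0.965 in paraxial mesoderm and 1.02, 1.03 and 1.00 in neuroepithelium. On this probe all 5 crest arrays lay below all 3 neuroepithelium arrays, by a slight log2 difference of -0.09 (SE 0.03) that did not pass (limma, adjusted p = 1.00). The annotation gives both Etv5 probes the same 3 transcript records, and probe 10438626 differed by 0.01 (SE 0.07) in that comparison.

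Il17rd showed a slight separation of the same kind. Probe 10413416 had 0.969, 0.974, 1.01, 0.993 and 1.02 in neural crest, 1.09, 1.07 and 1.10 in paraxial mesoderm and 1.03, 1.07 and 1.00 in neuroepithelium. All 5 crest arrays lay below all 3 mesoderm arrays, with a log2 difference of -0.13 (SE 0.03, limma adjusted p = 1.00). The second probe, 10413398, overlapped between these tissues, with 0.902 to 1.15 in neural crest and 0.997 to 1.05 in paraxial mesoderm.

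The member counts were next set beside those of all probes. Between neural crest and neuroepithelium 0 of 13 member probes passed, against 0.0275% of all probes, and 1 (Etv5) had no overlap with the crest lower, against 1.54% of all probes lower and 2.95% in either direction. Between neural crest and paraxial mesoderm 0 passed, against 0.00918%, and 1 (Il17rd) had no overlap with the crest lower, against 1.24% lower and 2.63% in either direction. Between paraxial mesoderm and neuroepithelium 0 passed, against 0.0138%, and 0 had no overlap, against 6.86%. At an unadjusted p below 0.05 in limma there were 2 member probes in the first comparison (Spred2 probe 10374464 and Etv5 probe 10363901), 3 in the second (Spred1, Spred2 probe 10374464 and Il17rd probe 10413416) and 0 in the third, against 2.77%, 2.86% and 2.41% of all probes. The comparisons share arrays and are not independent of each other. The members were chosen with earlier results of these data known, so these counts cannot show an enrichment. The called probes also went in opposite directions, with Spred1 and Spred2 higher in the crest and Etv5 and Il17rd lower.

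The median log2 difference of the 13 probes was 0.08 between neural crest and neuroepithelium, 0.05 between neural crest and paraxial mesoderm and 0.01 between paraxial mesoderm and neuroepithelium, where the medians over all probes lay within 0.01 of 0. Leaving aside Spry2 and Spred2 probe 10374464, the other 11 probes had fold differences of 0.917 to 1.20 for neural crest over neuroepithelium, 0.915 to 1.15 for neural crest over paraxial mesoderm and 0.931 to 1.14 for paraxial mesoderm over neuroepithelium. The widest 95% intervals among them, those of Dusp6, ran from 0.790 to 1.67, from 0.784 to 1.66 and from 0.662 to 1.53 in these comparisons, and those of the other 10 probes were narrower. A ratio near 1 does not show that a gene was silent or that it was equally active.

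**Figure D3:**
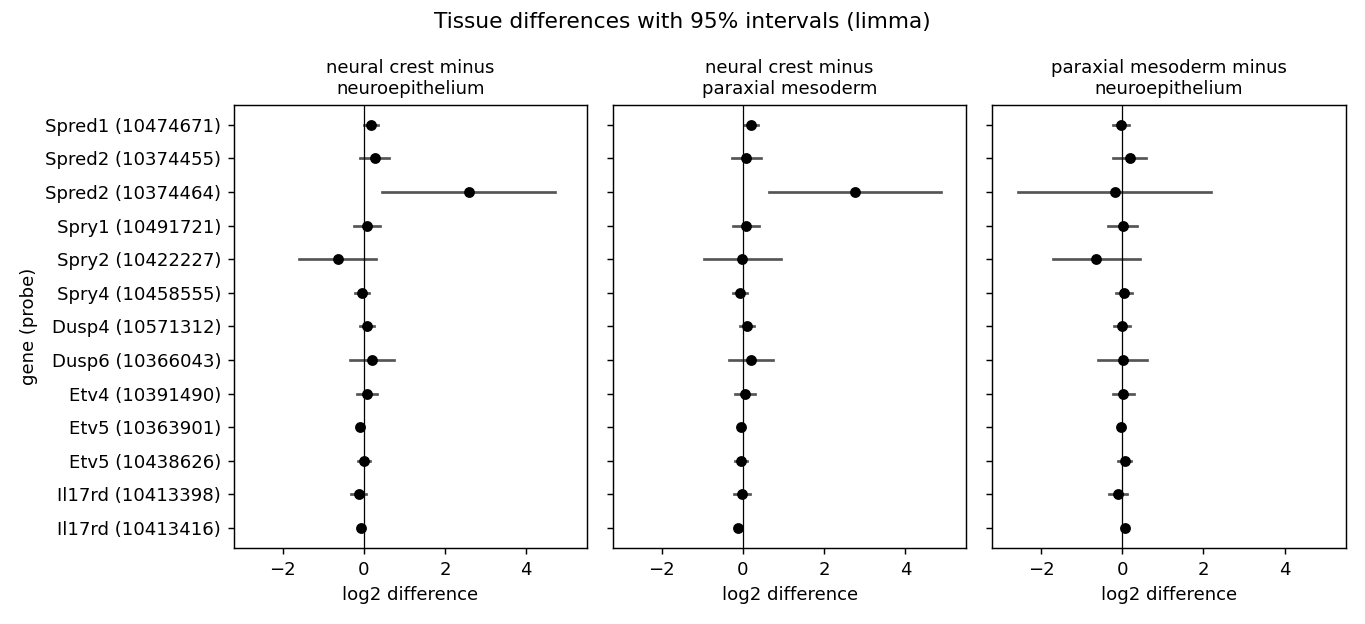
Log2 difference between tissues (points) with its 95% interval from limma (lines) for the 13 member probes, in the 3 comparisons of 5 neural crest, 3 paraxial mesoderm and 3 neuroepithelium arrays. Spred2 probe 10374464 lies at 2.58 and 2.75 with wide intervals in the crest comparisons, and the other points lie between -0.65 and 0.27.

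The array pattern of Spred2 probe 10374464 was then counted over all probes. It was taken from this probe's own values, so how rare it is tests nothing. Crest array 2, at 4.19, lay just above the 4-fold limit. In this count 11 of the 21789 probes (0.0505%) were high on at least 4 crest arrays and on no array of the other tissues. The other 10 were Snai1, Ddx47, Ifrd1, Mrpl19, Gid8, Riok3, Ppp1r1a, Wee1, Tpm4 and Ugdh, a set picked after the values were seen. Snai1, the repressor of epithelial genes at crest delamination, and the RNA helicase Ddx47 were high on all 5 crest arrays. Ifrd1, Mrpl19, Ppp1r1a and Ugdh were high on exactly the 4 crest arrays on which Spred2 was high.

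By the correlation of log2 ratios over the 11 arrays, among 5607 probes with a log2 range of at least 2, the genes most like Spred2 probe 10374464 were Ppp1r1a (Pearson r = 0.918) and Tlcd3a (r = 0.916). Ppp1r1a, a protein phosphatase inhibitor, had 1.33, 31.9, 13.4, 29.1 and 24.9 on crest arrays 1 to 5, 0.827 to 1.07 in paraxial mesoderm and 0.902 to 1.15 in neuroepithelium. For Spry2 they were Edem1 (r = 0.997), a chaperone-linked gene of protein degradation in the endoplasmic reticulum, and Gsdma (r = 0.997), a gasdermin. Both followed Spry2 through 1 array, with 15.8 for Edem1 and 8.35 for Gsdma on neuroepithelium array 3. These values describe 11 arrays that share a reference.

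**Figure D4:**
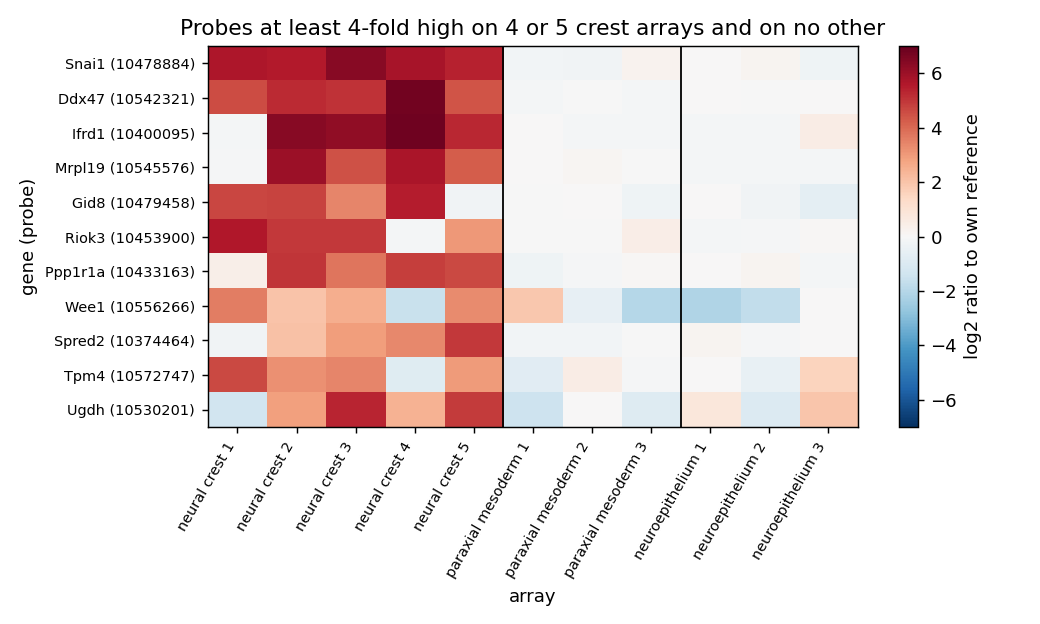
Log2 ratio to the probe's own reference (colour) of the 11 probes that were at least 4-fold high on 4 or 5 neural crest arrays and on no other array, in rows ordered by the difference between neural crest and neuroepithelium. Columns are the 5 neural crest, 3 paraxial mesoderm and 3 neuroepithelium arrays. Spred2 is near 0 on crest array 1, as are Ifrd1, Mrpl19 and Ppp1r1a.

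The arrays differed in how many probes were high and in which marker genes they held. High probes made up 1.97%, 5.60%, 5.13%, 2.00% and 7.33% of all probes on crest arrays 1 to 5, 1.83% to 7.88% on the mesoderm arrays and 2.85% to 5.51% on the neuroepithelium arrays. Crest arrays 1 and 4 had alike shares of high probes, with Spred2 probe 10374464 at 0.857 and 10.4 on them. Their shares of low probes differed, at 2.77% on crest array 1, the largest of the 11 arrays, and 1.67% on crest array 4. On crest arrays 2, 3 and 5 low probes made up 0.395%, 0.757% and 0.340%. Of 10 neural crest markers, 1, 4, 2, 1 and 5 were high on crest arrays 1 to 5, against 0 on every mesoderm array and 0 to 1 on the neuroepithelium arrays. All 11 paraxial mesoderm markers and 7 of 10 neuroepithelium markers stayed within 2-fold on every array, so the ratios do not mark those tissues by their defining genes. Of 10 surface ectoderm markers 3 to 5 were high in neuroepithelium, with 0 to 1 high in neural crest and 0 to 3 in paraxial mesoderm. Of 8 primitive erythrocyte markers 7 were high on mesoderm array 1 and 0 on the other arrays. Of the other cell types, endothelium (10 markers) and lateral plate (6) had 0 high markers on every array, and gut endoderm (7), notochord (5) and cardiac cells (7) had at most 2 on any array. The part of these in the values of the members was not tested.

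The rest of the pathway was read through 6 lists. No probe of any list passed in any comparison (limma, adjusted over all probes), where 0.00918% to 0.0275% of all probes passed. The list counts that follow are of genes. Over all probes 71.9% stayed within 2-fold on every array and 21.0% were high on at least 1. All 22 listed FGF ligands were measured and 20 stayed within 2-fold on every array, among them Fgf8, which ran from 0.720 to 1.19 in neural crest, 0.822 to 1.77 in paraxial mesoderm and 0.775 to 1.29 in neuroepithelium. Fgf17 reached 5.71 on crest array 2, and Fgf3 reached 8.15 on mesoderm array 1. The receptors Fgfr1 to Fgfr4 all stayed within 2-fold. Of 15 receptor and co-receptor genes measured 3 were high anywhere, with the heparan sulphate proteoglycan Gpc3 at 7.37 and 6.76 on crest arrays 2 and 5, 112 on mesoderm array 3 and 20.7 on neuroepithelium array 3. All 19 measured genes of other receptor tyrosine kinases stayed within 2-fold.

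Of 26 further ERK feedback genes 19 stayed within 2-fold. Among those that did not, the phosphatase Dusp1 reached 52.0 on crest array 2, Dusp14 reached 34.2 on crest array 4 and 4.96 on neuroepithelium array 3, and Dusp2 reached 27.8 on mesoderm array 1. Rasa1, a GTPase-activating protein for RAS, was high on crest arrays 3 (13.6) and 5 (14.9) and on mesoderm array 2 (18.0). Of 16 measured genes of the relay from RAS to ERK, 8 stayed within 2-fold. The MEK genes in this list varied within each tissue. Map2k1 had 14.2, 1.00, 19.3, 2.18 and 10.7 in neural crest, 3.45, 0.730 and 0.558 in paraxial mesoderm and 0.971, 0.620 and 7.53 in neuroepithelium. The genes of the relay, feedback, ligand and receptor lists named here were picked after their values were seen.

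Of 29 measured further FGF and ERK targets 23 stayed within 2-fold, among them Fos, Egr1 and Etv1, and the rule for naming genes picked Myc and Phlda1. Myc, a growth regulator, had 5.83, 4.42, 1.99, 1.42 and 4.97 in neural crest, 1.57, 0.317 and 0.0636 in paraxial mesoderm and 0.0687, 0.0836 and 0.0630 in neuroepithelium. The crest did not overlap with neuroepithelium (log2 difference 5.51, SE 0.92, limma adjusted p = 0.487). Phlda1, a pleckstrin homology-like domain gene induced by growth factors, had 0.0204, 0.0220, 0.129, 1.45 and 0.752 in neural crest, 1.00, 1.85 and 0.0227 in paraxial mesoderm and 2.37, 1.76 and 1.90 in neuroepithelium. Here the crest lay below neuroepithelium on every array (log2 difference -3.78, SE 1.84, limma adjusted p = 1.00), with crest arrays 1, 2 and 3 far below and arrays 4 and 5 near 1. Crest array 1, the lowest for Spred2 probe 10374464, held the highest Myc ratio and the lowest Phlda1 ratio of the crest arrays. The next were close, with Myc at 4.97 on crest array 5 and Phlda1 at 0.0220 on crest array 2. On these 2 arrays that Spred2 probe stood at 30.6 and 4.19.

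**Figure D5:**
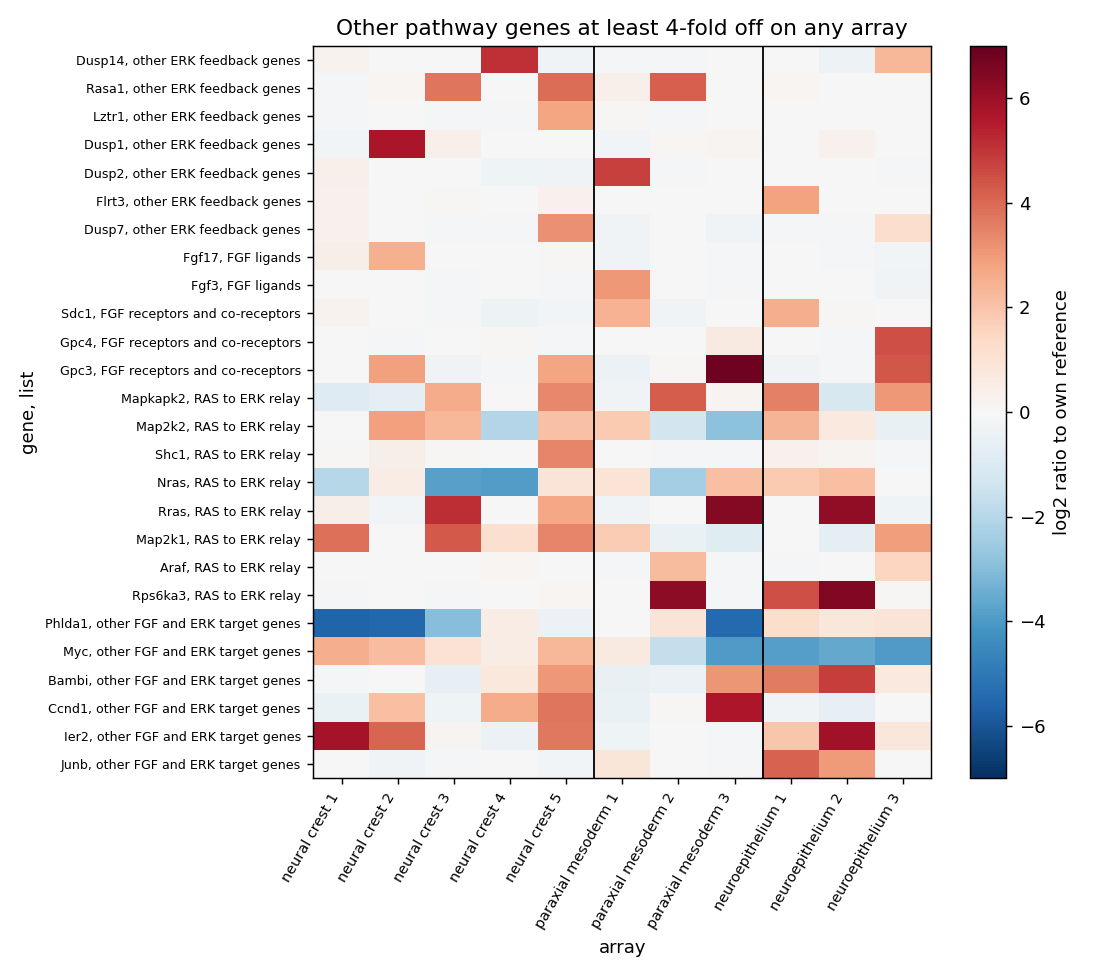
Log2 ratio to the probe's own reference (colour) of every probe of the 6 pathway lists that was at least 4-fold above or below its reference on any array. Columns are the 5 neural crest, 3 paraxial mesoderm and 3 neuroepithelium arrays. Dusp1 and Dusp2 stand out on 1 array each, and Myc is low on all 3 neuroepithelium arrays.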

How the data were processed

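Per the labels' protocols, RNA from laser-captured tissue was prepared with a Zymo kit, amplified with the NuGEN Ovation Pico system, labelled with biotin and hybridised to Affymetrix mouse ST arrays, 1 per sample. RMA and the build mm9 are named, per the submitters' processing notes, with no version or role. The values as deposited are linear ratios to a reference of each probe, and the step by which the authors made them is not stated. Of 35557 probes 6701 were blank, and 7067 probes without a unique symbol were not used. Log2 was taken without a pseudocount. Group means of all 11 arrays were fitted to the 21789 probes with 1 symbol in limma 3.58.1 (R 4.3.3; lmFit, and eBayes with no intensity trend, since ratios hold no intensity), with Benjamini-Hochberg adjustment over all probes per comparison. The fit was tested on simulated normal values with 1 spread per probe in all tissues and a shift equal on all crest arrays. It recovered 78 of 100 probes shifted by 2 on the log2 scale and 84 of 100 shifted by 4. This does not cover probes high on only some arrays of a tissue.

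Symbols were checked by Entrez identifier (21698 probes matched, 0 changed). The members and lists were chosen with earlier results of these data known, and the 4-fold limit likewise. Every member probe was named. A pathway gene was named if a probe passed, or if it was at least 4-fold off on 2 arrays of a tissue that did not overlap with another tissue. Alternatives were an intensity trend, robust variances, 1 probe per gene, median centring, a log2 range filter of 1, a pseudocount of 0.1, fits of 2 tissues, a replicate block and each array left out. Same-numbered arrays did not deviate together (r from -0.15 to 0.05 over 9 pairs). No batch is named in the labels.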

Additional observations from a re-analysis of the deposited data

How the results depend on the processing

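Under all 19 alternatives 0 member probes passed in any of the 3 comparisons, and the 4 member differences tested again (Spred2 probe 10374464 in both crest comparisons, Etv5 and Il17rd) kept their sign wherever their probe entered the fit. For Spred2 the log2 difference ran from 1.55 to 3.29 over neuroepithelium (2.00 to 3.29 with 1 array left out) and from 1.73 to 3.47 over paraxial mesoderm (2.18 to 3.47), with limma adjusted p from 0.644 to 1.00 and from 0.896 to 1.00. The lowest values, 1.55 and 1.73, came with replicate number as a block. Numbers 4 and 5 occur only in neural crest, so this fit left crest arrays 4 and 5 (10.4 and 30.6) out of both differences. Those 1.55 and 1.73 thus rest on crest arrays 1 to 3. The labels do not say whether the numbers pair arrays. No same-numbered pair correlated above 0.1, but this check cannot exclude pairing, since deviations within a tissue of few arrays are tied to each other. Under the block 6, 3 and 2 probes passed over the whole array. These are crest against neuroepithelium, crest against mesoderm and mesoderm against neuroepithelium, in that order. Etv5 ran from -0.10 to -0.07 and Il17rd from -0.14 to -0.12.

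The counts over the whole array, 6, 2 and 3 in the same order of comparisons, moved more. With the intensity trend they were 2, 0 and 2, and with only the compared tissues fitted the first was 10. Leaving out 1 array gave 5 to 20, 1 to 45 and 3 to 40. The first was 15, 20 and 16 without neuroepithelium arrays 1, 2 and 3 and 11 without crest array 1. The second was 1 without neuroepithelium array 2 or 3 or crest array 3, 5 without crest array 1, and 4, 12 and 45 without mesoderm arrays 1, 2 and 3. The third was 11, 13 and 12 without the neuroepithelium arrays, 5 without crest array 2 and 7, 14 and 40 without the mesoderm arrays. The cause was not tested. The number of arrays limits the precision.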
